A study of Bos grunniens and Bos grunniens x Bos taurus with 12 samples.

Results

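The translation levels of 10 genes of meiotic recombination were examined in the testes of yak at 3 ages and of cattle–yak. The genes were chosen by name, for their known part between the formation of DNA double-strand breaks and crossover resolution, with earlier results of these data known. A row with the symbol was found for 9 of the 10 among 20965 genes, of which 13662 have a symbol: *SPO11*, *MEI1*, *DMC1*, *MEIOB*, *SPATA22*, *TEX15*, *MSH4*, *HFM1* and *MLH3*. No row has the symbol *MSH5*. A row without a symbol, ENSBGRG00000016250, is described as the mutS protein homolog 5 and is reported apart, outside every count over the 9 genes. All 9 genes and this row passed the filter on low counts in each of the 6 comparisons made.

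Crossovers arise in prophase I of meiosis, when spermatocytes cut their own DNA, resect the ends to single strands and repair them from the homologous chromosome. SPO11 makes the breaks with the help of accessory proteins such as MEI1. The recombinase DMC1 then coats the single strands and pairs them with the homologue, aided by the single-strand binding partners MEIOB and SPATA22 and by TEX15, which mouse spermatocytes need for loading recombinases. MSH4 with MSH5 and the helicase HFM1 stabilise the joined strands, and MLH3 helps to resolve a part of them as crossovers. Without these steps homologous chromosomes do not segregate properly, and male mice that lack many of these genes arrest in spermatocytes.

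Ribo-seq reads the pieces of mRNA shielded by translating ribosomes, known as ribosome footprints (RFs), and was carried out on testis from 4 groups of 3 males, with 1 library per animal. The groups were yak of 6 months in the juvenile stage, yak of 18 months in puberty, yak of 4 years in sexual maturity, and cattle–yak of 4 years in sexual maturity. Cattle–yak were born to Jersey bulls and Gannan yak dams, so they carry cattle as well as yak alleles, while the authors aligned all reads to the yak genome. The part of this in the values below was not tested. Levels are given as the FPKM of the authors, which are counts per length of gene and library total, so levels of different genes can be compared on this scale.

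Library totals were 25816963 to 37167651 counts at 6 months, 21309151 to 24542362 at 18 months, 16304058 to 17862516 in yak of 4 years and 38437889 to 52616039 in cattle–yak. The germ cells in the testes differed between and within the groups. The summed FPKM of 7 round spermatid markers was 1748 to 2481 in yak of 4 years, 11.7 to 18.8 in cattle–yak and 1.15 to 2.77 at 6 months. At 18 months it was 4.25 and 9 in replicates 1 and 3 but 1054 in replicate 2, which stood apart from its group. The summed FPKM of 11 markers of prophase I, most of them proteins of the chromosome axis and synaptonemal complex, was 133 to 197 at 6 months, 197 to 712 at 18 months, 884 to 1004 in yak of 4 years and 457 to 694 in cattle–yak. In cattle–yak it was highest in replicate 1. HORMAD1 alone made 123 to 183 FPKM of the sum at 6 months, and 10 of the 11 markers were called higher at 4 years than at 6 months, with a median log2 fold change of 5.18. Markers of somatic cells and spermatogonia changed too. In cattle–yak against yak of 4 years 5 of 5 peritubular myoid, 2 of 2 Leydig, 3 of 6 Sertoli and 4 of 8 spermatogonial markers were called higher, against 17.1% of all tested genes. There 1 of 5 endothelial and 1 of 5 macrophage markers were called lower, against 27.0%. From 6 months to 4 years 5 of 6 Sertoli, 2 of 2 Leydig, 4 of 5 endothelial, 3 of 5 macrophage and 2 of 5 myoid markers were called lower, against 24.7%. Of 8 spermatogonial markers 2 were then called higher and 1 lower. The part of these cell types in the members' values was not tested. In whole testis, fewer cells of a type and fewer RFs per cell cannot be told apart, and this holds for each comparison below.

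Among the genes of break formation, *SPO11* (ENSBGRG00000010307) had 0.25, 0.71 and 0.35 FPKM in the 3 libraries of 6 months, 1.64, 5.44 and 2.33 at 18 months and 12.6, 7.79 and 10.9 in yak of 4 years. In cattle–yak, *SPO11* had 8.85, 2.16 and 3.72 FPKM. The 3 ages of yak did not overlap, and cattle–yak replicate 1 lay within the range of the mature yak while the other two lay among the values of 18 months. *MEI1* (ENSBGRG00000009152) was at 0.18, 0.16 and 0.14 FPKM at 6 months, at 0.62, 4.40 and 2.13 at 18 months and at 4.06, 5.80 and 5.83 in yak of 4 years. Its levels in cattle–yak were 3.24, 2.06 and 2.45 FPKM, all below the 3 mature yak. Replicate 2 of 18 months reached the lowest mature yak for *MEI1*, so these ages overlapped.

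*DMC1* (ENSBGRG00000002636) was the member with the highest level in sexual maturity. Its FPKM was 0.88, 2.95 and 2.5 at 6 months, 6.41, 61.8 and 16.9 at 18 months and 108, 93.9 and 81.4 in yak of 4 years. Cattle–yak had 82.3, 22.5 and 54.3 FPKM of *DMC1*, and only replicate 1 of them entered the range of the mature yak. *MEIOB* (ENSBGRG00000026058) was listed at 0 with 0 counts in replicate 1 of 6 months, which allows up to 3 counts, and at 0.41 and 0.19 FPKM in the other two. At 18 months *MEIOB* had 0.74, 29.7 and 1.80 FPKM, and yak of 4 years had 35.0, 31.9 and 40.1. Cattle–yak had 27.2, 9.90 and 15.03 FPKM of *MEIOB*, below each mature yak and above each library of 6 months. *SPATA22* (ENSBGRG00000022199), its partner, was at 0.42, 0.50 and 0.12 FPKM at 6 months, at 2.09, 35.2 and 6.82 at 18 months, at 52.9, 41.4 and 53.0 in yak of 4 years and at 37.1, 20.8 and 22.4 in cattle–yak. For both partners the cattle–yak lay between the juvenile and the mature yak, and replicate 2 was the only library of 18 months above the lowest cattle–yak.

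*TEX15* (ENSBGRG00000024980) followed another order. It was at 4.60, 4.69 and 3.11 FPKM at 6 months, the highest mean of the members at that age, at 6.29, 23.6 and 8.76 at 18 months and at 44.1, 39.1 and 34.5 in yak of 4 years. Cattle–yak had 7.32, 4.24 and 5.10 FPKM. This range overlapped that of the juvenile yak and reached only the lowest library of 18 months. Of the summed FPKM of the 9 genes, *TEX15* made up 37.2% ± 10.1 (SD, n = 3) at 6 months, 15% ± 1.19 in yak of 4 years and 4.87% ± 0.970 in cattle–yak.

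Among the crossover genes, *MSH4* (ENSBGRG00000003243) was nearly silent at 6 months, with 3 to 5 counts per library and 0.06, 0.05 and 0.04 FPKM. It had 0.25, 3.31 and 0.81 FPKM at 18 months and 5.63, 4.86 and 5.49 in yak of 4 years. In cattle–yak *MSH4* had 1.78, 1.12 and 1.28 FPKM, far from the mature yak and inside the wide range of 18 months. The row described as *MSH5* had 0.21, 0.46 and 0.77 FPKM at 6 months, 1.53, 7.20 and 2.43 at 18 months, 10.9, 7.55 and 10.5 in yak of 4 years and 4.59, 3.54 and 4.32 in cattle–yak. It took the same places as its partner, with cattle–yak below each mature yak. *HFM1* (ENSBGRG00000002085) was at 0.50, 0.37 and 0.28 FPKM at 6 months, at 0.55, 3.04 and 0.50 at 18 months, at 5.59, 5.79 and 3.87 in yak of 4 years and at 4.31, 1.68 and 1.90 in cattle–yak. Only replicate 2 stood out at 18 months for *HFM1*, and cattle–yak replicate 1 exceeded the lowest mature yak. *MLH3* (ENSBGRG00000008456), which acts last, was at 2.56, 4.37 and 3.66 FPKM at 6 months, at 3.04, 10.9 and 4.2 at 18 months and at 15.2, 17.2 and 18.2 in yak of 4 years. Cattle–yak had 7.13, 6.74 and 5.41 FPKM of *MLH3*, a narrow range between the juvenile and the mature yak on this scale. With scaling by library size alone, the median of all genes was also 0.52 higher on the log2 scale in cattle–yak than at 6 months.

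**Figure D1:**
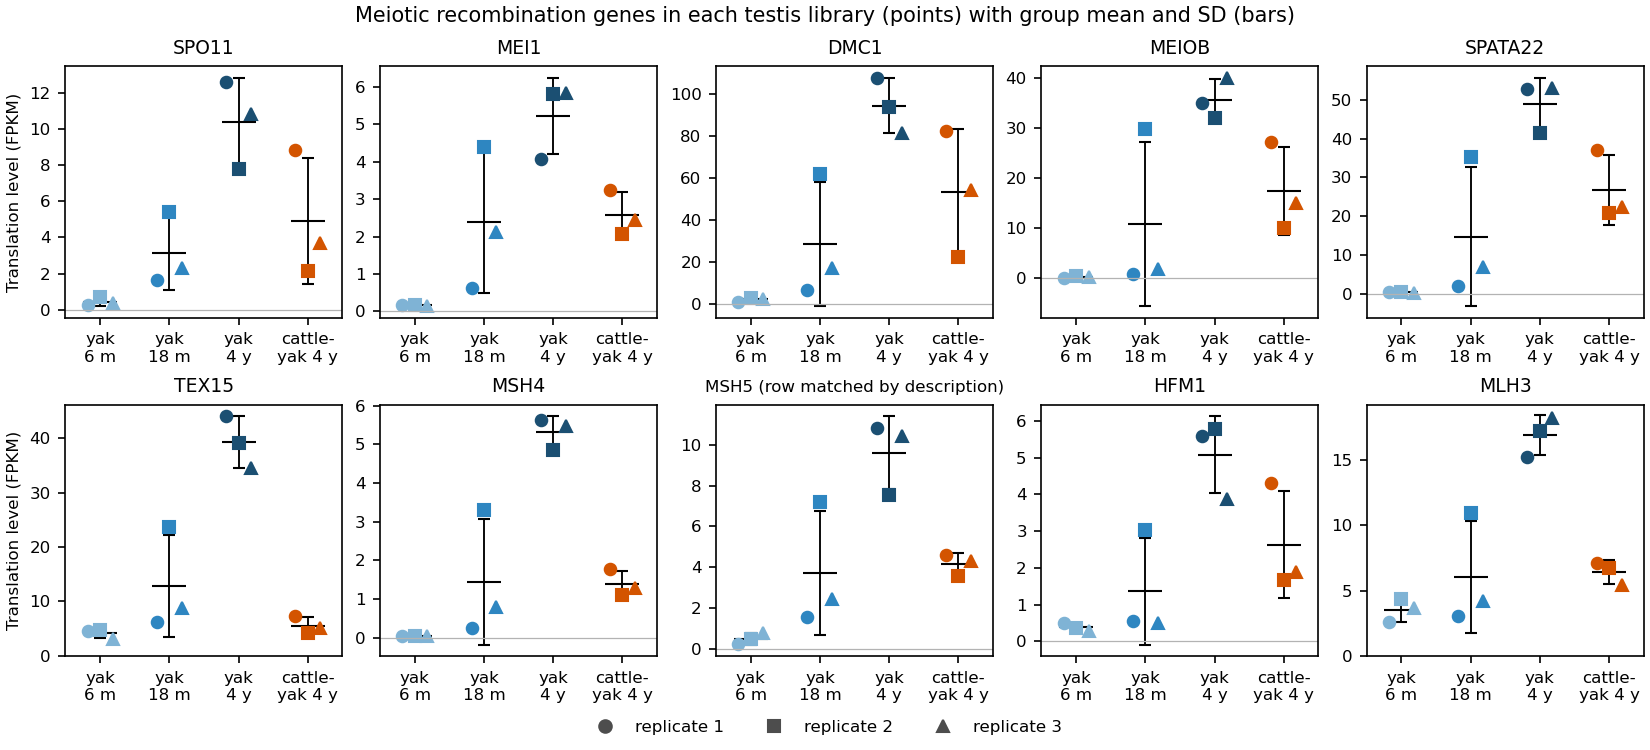
Translation level in FPKM (vertical axis, a separate linear scale for each gene) of the 9 genes and the row described as MSH5 in the 12 libraries, with points for libraries, shapes for replicates, horizontal bars for group means and error bars for the SD of 3 libraries. Replicate 2 of 18 months lies above the other two pubertal libraries in every panel, and the cattle–yak libraries lie below the 3 mature yak except in SPO11, DMC1 and HFM1, where replicate 1 overlaps them.

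The first question was how the recombination genes change as the yak testis matures. From 6 months to 4 years all 9 genes rose. *MEIOB* rose by a log2 fold change of 6.82 (SE 0.528), *SPATA22* by 6.69 (SE 0.409) and *MSH4* by 6.20 (SE 0.328), with adjusted p of 4.75e-06, 1.12e-06 and 4.93e-07 by the quasi-likelihood test of edgeR, adjusted after Benjamini-Hochberg. The other strand invasion and break genes followed, with 4.90 for *DMC1*, 4.46 for *MEI1* and 4.05 for *SPO11*. *HFM1* rose by 3.15, *TEX15* by 2.67 and *MLH3* by 1.75, the smallest of the 9 rises. The *MSH5* row rose by 3.76. In edgeR, 31.0% of 16133 tested genes were called higher at 4 years, against 9 of 9 members, and the median log2 fold change was 4.46 over the members and 0.08 over all tested genes. The 2 groups did not overlap in any of the 9 genes, and each of the 9 was called in all 15 alternative settings. For no comparison here was the share of all tested genes without overlap counted, so counts of non-overlap have no background. They rest on FPKM, which are scaled between libraries by total alone. With scaling by library size alone the median log2 fold change of all genes was 0.641 at 4 years against 6 months. It was 0.418 at 18 months against 6 months and 0.186 at 4 years against 18 months. Such counts are therefore not read as a result about the members. Genes were called differentially translated (DTGs) where the adjusted p was below 0.05 and the size of the log2 fold change reached 1.

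The steps between were not resolved by the edgeR test. At 18 months against 6 months 0 of 9 members were called, while 7 of 9 had an unadjusted p under 0.05 and DESeq2 called 5 (*SPO11*, *DMC1*, *MSH4*, *SPATA22* and *MEI1*). Over all tested genes 0.0672% were called by edgeR in either direction, 25.8% had an unadjusted p under 0.05 and 7.13% were called higher by DESeq2. The log2 fold changes fitted by edgeR ran from 0.54 for *MLH3* to 5.32 for *MEIOB*, with adjusted p from 0.0621 to 0.510. The groups did not overlap in 7 of 9 members, the exceptions being *HFM1* and *MLH3*, but the share over all genes was not counted. Without replicate 1 of 18 months, whose members were lowest but for *HFM1*, edgeR called 6 of 9 members higher, against 8.70% of all tested genes. Leaving out the lowest library raises the group by itself, so these calls are no added support. *MLH3* turned from 0.54 to −0.25 when replicate 2 of 18 months was left out.

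From 18 months to 4 years edgeR again called 0 of 9 members and 0.0371% of all tested genes in either direction. An unadjusted p under 0.05 was found for 4 of 9 members and for 35.4% of all tested genes. DESeq2 called 7 of 9 members higher, all but *MEIOB* and *MEI1*, against 12.9% of all tested genes. The log2 fold changes lay between 1.03 for *MEI1* and 1.80 for *HFM1*. Between these ages 8 of 9 members did not overlap, again without a share counted over all genes. Without replicate 2 of 18 months, which stood apart by its spermatid markers, all 9 members were called higher at 4 years in edgeR, against 26.1% of all tested genes. This library was also the highest of its group in all 9, so leaving it out favours such calls. *MEIOB* was then 4.66 higher on the log2 scale (SE 0.366), *SPATA22* 3.30 (SE 0.436) and *MSH4* 3.15 (SE 0.451). The 2 remaining libraries of 18 months had 44.2 and 21.6 FPKM over the 9 genes together, against 178 in replicate 2 and 248 to 283 in yak of 4 years.

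The comparison of the hybrid with yak of the same age was the centre of the design. The authors took yak testes after euthanasia and cattle–yak testes by castration surgery. They also reported a shorter main RF length and a higher share of aligned reads in cattle–yak. These differences go with the cross, so they cannot be told apart from it. In cattle–yak 4 of 9 members fell: *TEX15*, *MSH4*, *MLH3* and *MEIOB*. *TEX15* fell by 2.81 on the log2 scale (SE 0.233, adjusted p = 1.88e-05, edgeR), a difference of 6.99 times, from 39.2 ± 4.79 to 5.55 ± 1.59 FPKM (SD, n = 3 each). *MSH4* fell by 1.91 (SE 0.237, adjusted p = 0.000174), from 5.33 ± 0.410 to 1.39 ± 0.344 FPKM. *MLH3* fell by 1.40 (SE 0.158, adjusted p = 0.000100), from 16.9 ± 1.52 to 6.43 ± 0.902 FPKM. These 3 genes were called lower in all 15 alternative settings, including each library left out in turn. *MEIOB* fell by 1.01 (SE 0.337, adjusted p = 0.0276), just past the fold threshold, and was called in 8 of 15 settings. The *MSH5* row fell by 1.2 (SE 0.199, adjusted p = 0.000907) and was called in 14 settings.

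The other 5 members were lower in the mean but were not called by edgeR. *MEI1* had a log2 fold change of −0.997 (SE 0.228, adjusted p = 0.00497) and *SPATA22* one of −0.86 (SE 0.246, adjusted p = 0.0145), so both passed the adjusted p but not the fold. *SPO11* had −1.07 (SE 0.474, adjusted p = 0.0767), *HFM1* −0.93 (SE 0.377, adjusted p = 0.0583) and *DMC1* −0.77 (SE 0.406, adjusted p = 0.126) in edgeR, with overlapping groups. The p-values of these 3 genes do not show that their levels were equal. In DESeq2 all 9 members had an adjusted p below 0.05, as had 10864 of 16498 tested genes. DESeq2 called 6 of 9 members lower, *SPO11* at −1.12 (adjusted p = 0.0249) and *MEI1* at −1.04 (adjusted p = 9.60e-05) beside the 4 genes above, against 27.4% of all tested genes. Called lower were 4 of 9 members against 27.0% of 16498 tested genes, and 0 of 9 members were called higher against 17.1%. The median log2 fold change was −1.01 over the members and −0.00 over all tested genes, and all 9 values were below 0.

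The calls of *DMC1* and *SPATA22* depended on cattle–yak replicate 1 alone: in 15 settings both were called only without it. Its summed FPKM of the 9 genes was 179, against 71.2 and 112 in replicates 2 and 3 and 248 to 283 in yak of 4 years. It was highest of the 3 cattle–yak in all 9 members. Without it all 9 members were called lower, against 27.2% of all tested genes, and the log2 fold changes became −1.79 for *SPO11*, −1.51 for *HFM1*, −1.27 for *DMC1*, −1.21 for *MEI1*, −1.19 for *SPATA22* and −1.52 for *MEIOB*. Leaving out the library with the highest values lowers the group by itself, so these calls are no added support. *MEI1* was called also without replicate 1 of the mature yak, at −1.06, and in 6 of 15 settings in all, *SPO11* in 5 and *HFM1* in 3. *MEIOB* was not called without replicate 1 or 3 of the mature yak or replicate 2 or 3 of the cattle–yak, at −0.94, −0.88, −0.72 and −0.90. Replicate 1 also had the highest sum of prophase I markers, 694 against 457 and 516, and of late spermatocyte markers, 218 against 128 and 136. The part of these cell types in the members' values was not tested.

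**Figure D2:**
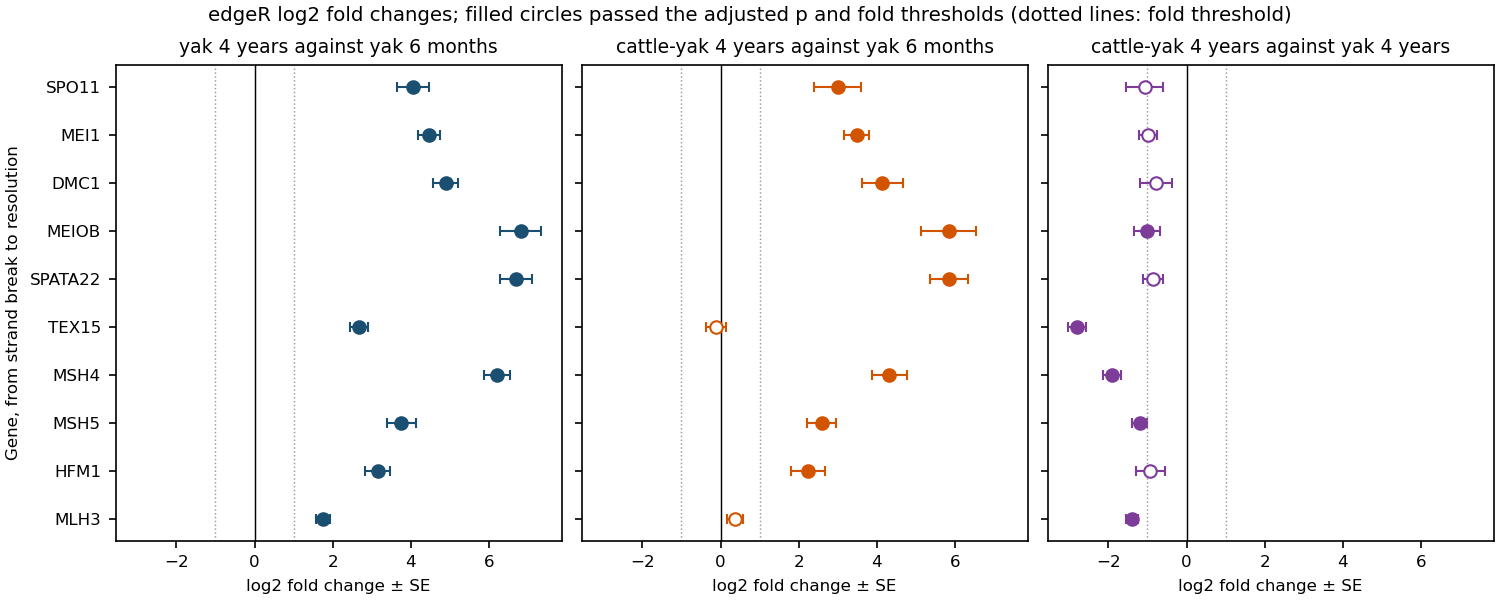
Log2 fold change from edgeR (horizontal axis, bars for the SE) of the 9 genes and the MSH5 row, ordered from break to resolution, in 3 comparisons of 3 against 3 libraries that share groups; filled circles were called and open circles were not. All 10 rows are filled at 4 years against 6 months, whereas TEX15 at −0.12 and MLH3 at 0.37 are open in cattle–yak against 6 months and TEX15 at −2.81 is farthest from 0 in cattle–yak against yak of 4 years.

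Set against juvenile yak, 7 of 9 members were called higher in cattle–yak, beside 18.1% of 15571 tested genes. *SPATA22* was higher by 5.86 on the log2 scale, *MEIOB* by 5.84, *MSH4* by 4.32, *DMC1* by 4.14, *MEI1* by 3.48, *SPO11* by 2.998 and *HFM1* by 2.23, with adjusted p of at most 0.00313, that of *SPO11*, in edgeR. In cattle–yak of 4 years these 7 genes, from break formation to crossover designation, were thus at several times the level of juvenile yak. Age and cross differ together in each comparison of cattle–yak with younger yak, so they cannot be told apart. The *MSH5* row was higher by 2.59. The exceptions were *TEX15* and *MLH3*. *TEX15* had a log2 fold change of −0.12 (SE 0.254, adjusted p = 0.698), which turned to 0.43 when libraries were scaled by size alone, and it ran from −0.37 to 0.43 over the 15 settings without a call. *MLH3* had 0.37 (SE 0.204, adjusted p = 0.154), with a range of 0.23 to 0.89. Both genes rose with age in yak, by 2.67 and 1.75. These comparisons share the juvenile libraries, so the rises are not independent of each other.

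No member was called between cattle–yak and yak of 18 months, where edgeR called 5.80% of 15702 tested genes in either direction, and 0 of all genes when any one cattle–yak library was left out. Only *TEX15* of the 9 had an unadjusted p under 0.05 in edgeR (log2 fold change −1.28, SE 0.455, adjusted p = 0.123), while 30.3% of all tested genes did. It was also the member that DESeq2 called, beside 2401 of all tested genes in either direction. For the other 8 members the log2 fold changes ran from −0.09 to 0.92, with standard errors of up to 1.21. The levels of all 9 overlapped between these groups, which differ in age and cross together. Without replicate 2 of 18 months, *MEIOB*, *SPATA22* and *HFM1* were called higher in cattle–yak, at 3.64, 2.43 and 2.10, while 7.22% of all tested genes were called higher. *MSH4* and *MLH3* then had 1.23 and 0.64 without a call.

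The members were next related to the 11 prophase I markers, whose fit to the cells that carry the members was not tested. Each level was divided by the summed FPKM of these markers in the same library. On this log2 scale *TEX15* differed by −2.05 between cattle–yak and yak of 4 years, *MSH4* by −1.11 and *MLH3* by −0.61, and their groups did not overlap. The *MSH5* row differed by −0.41 and its groups were separated by a narrow gap only, −6.85 against −6.87. The other 6 members differed by −0.14 for *SPATA22* to −0.50 for *SPO11* and overlapped. The geometric mean of the markers was also taken in place of the sum. In it HORMAD1 and SYCP3, the highest of the markers in cattle–yak, weigh less. *TEX15* at −1.79 and *MSH4* at −0.85 still did not overlap, whereas *MLH3* at −0.35 and the *MSH5* row at −0.15 did. *SPATA22* at 0.12, *MEI1* at 0.04, *DMC1* at 0.03 and *HFM1* at 0.01 then changed sign. With 3 libraries against 3, an exact two-sided permutation test of such a value cannot give a p below 0.1, so none was run.

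Of these prophase I markers 5 of 11 were called lower in cattle–yak against yak of 4 years and 0 higher, against 27.0% and 17.1% of all tested genes. Their median log2 fold change was −0.99, close in size to that of the members, but single markers differed widely. SYCP3 was the only one of the 11 with a higher mean FPKM in cattle–yak. It had 148, 77.9 and 112 FPKM in cattle–yak and 78.4, 59.7 and 71.6 in yak of 4 years. SYCE1 had 29.6, 19.35 and 22.5 FPKM in cattle–yak and 112, 98.6 and 118 in yak of 4 years. All 6 late spermatocyte markers, all 7 round spermatid markers and all 5 elongating spermatid markers were called lower, with medians of −3.09, −7.88 and −10.0. In this comparison the *TEX15* value of −2.81 stood nearer to the median of the late spermatocyte markers than to that of the prophase I markers. The value of *MSH4*, −1.91, lay between these medians. Against yak of 6 months *TEX15* did not go with the late spermatocyte markers. There 5 of 6 of these markers were called higher in cattle–yak, with a median of 2.16, against 18.1% of all tested genes. *TEX15* was then at −0.12 without a call. How these cell types enter the values of *TEX15* and *MSH4* was not tested.

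**Figure D3:**
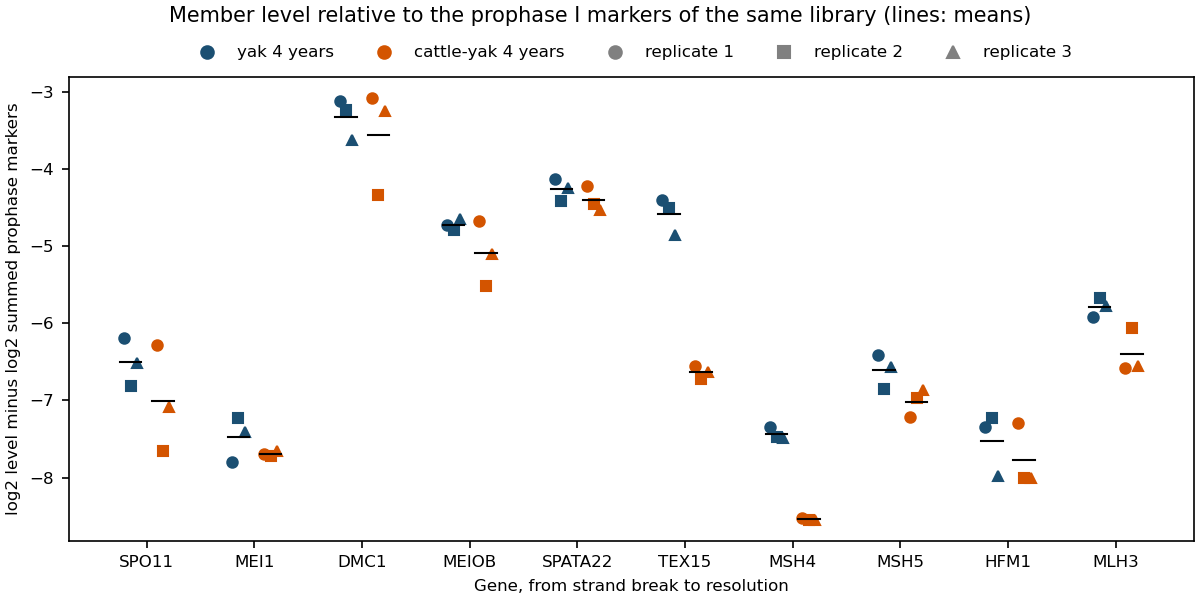
Log2 level of each member minus the log2 of the summed prophase I markers of the same library (vertical axis) in yak of 4 years and cattle–yak, with a point for each of 3 libraries and a line for the mean. TEX15 and MSH4 show wide gaps between the groups, of −2.05 and −1.11 between the means, MLH3 and the MSH5 row smaller ones, and the other 6 genes overlap.

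The wider pathway was described with 54 recombination genes by role, of which 40 were found by symbol, 31 of them beyond the members, and 9 only through the description of a row. In cattle–yak against yak of 4 years, 10 of the 31 other genes were called lower, 1 was called higher and 20 were not called. Their median log2 fold change was −0.50. By role and with members included, 2 of 10 genes of break formation and resection were called lower and 1 higher, 6 of 15 of strand invasion were called lower, 4 of 8 of crossover designation and 2 of 7 of resolution. With 27.0% of all tested genes called lower, the count of the 31 genes was near the background.

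The partners of *SPO11* went in opposite directions. *REC114* and *ANKRD31*, which bind each other at sites of break formation, fell by 1.63 and 1.57 on the log2 scale, whereas *MEI4*, the partner of *REC114*, rose by 1.42 (SE 0.194, adjusted p = 0.000302, edgeR). *MEI4* had 10.2, 8.35 and 9.41 FPKM in cattle–yak and 3.44, 3.29 and 3.81 in yak of 4 years, and 0.39 to 1.81 at 6 months. It was the only gene of the 40 that was called higher, and it was so in all 15 settings. The row described as *IHO1*, which acts with both, fell by 1.69.

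In strand invasion, *PSMC3IP* and *MND1*, whose proteins form a complex that aids DMC1, fell by 1.28 and 1.57. *HSF2BP*, a partner of BRCA2, fell by 1.30, and *RPA3*, a subunit of the single-strand binding protein RPA with which MEIOB and SPATA22 act, fell by 1.22. *RPA1*, the large subunit, lay in the other direction at 0.96 (SE 0.161, adjusted p = 0.000962, edgeR), with 56.7 ± 7.84 FPKM against 29.5 ± 4.15 and no overlap. It missed the fold threshold and was called higher in 4 of 6 fits with a library left out. The genes that fell stayed nearer to 0 than *TEX15*. The farthest from 0 were in crossover designation. *PRR19* and *CNTD1*, which act together at crossover sites, fell by 4.37 (SE 0.329, adjusted p = 1.12e-05, edgeR) and 3.99 (SE 0.371, adjusted p = 3.50e-05), from 60.0 ± 11.8 to 2.84 ± 1.18 and from 107 ± 32.5 to 6.62 ± 2.74 FPKM (SD, n = 3 each). *REDIC1*, listed under an older symbol, fell by 1.99, and the rows described as *RNF212* and *SHOC1* fell by 2.09 and 1.88. *TEX11*, an X-linked gene of this step, was not called at 0.43 (adjusted p = 0.0858). Of resolution genes *SLX4*, a nuclease scaffold, fell by 2.54.

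**Figure D4:**
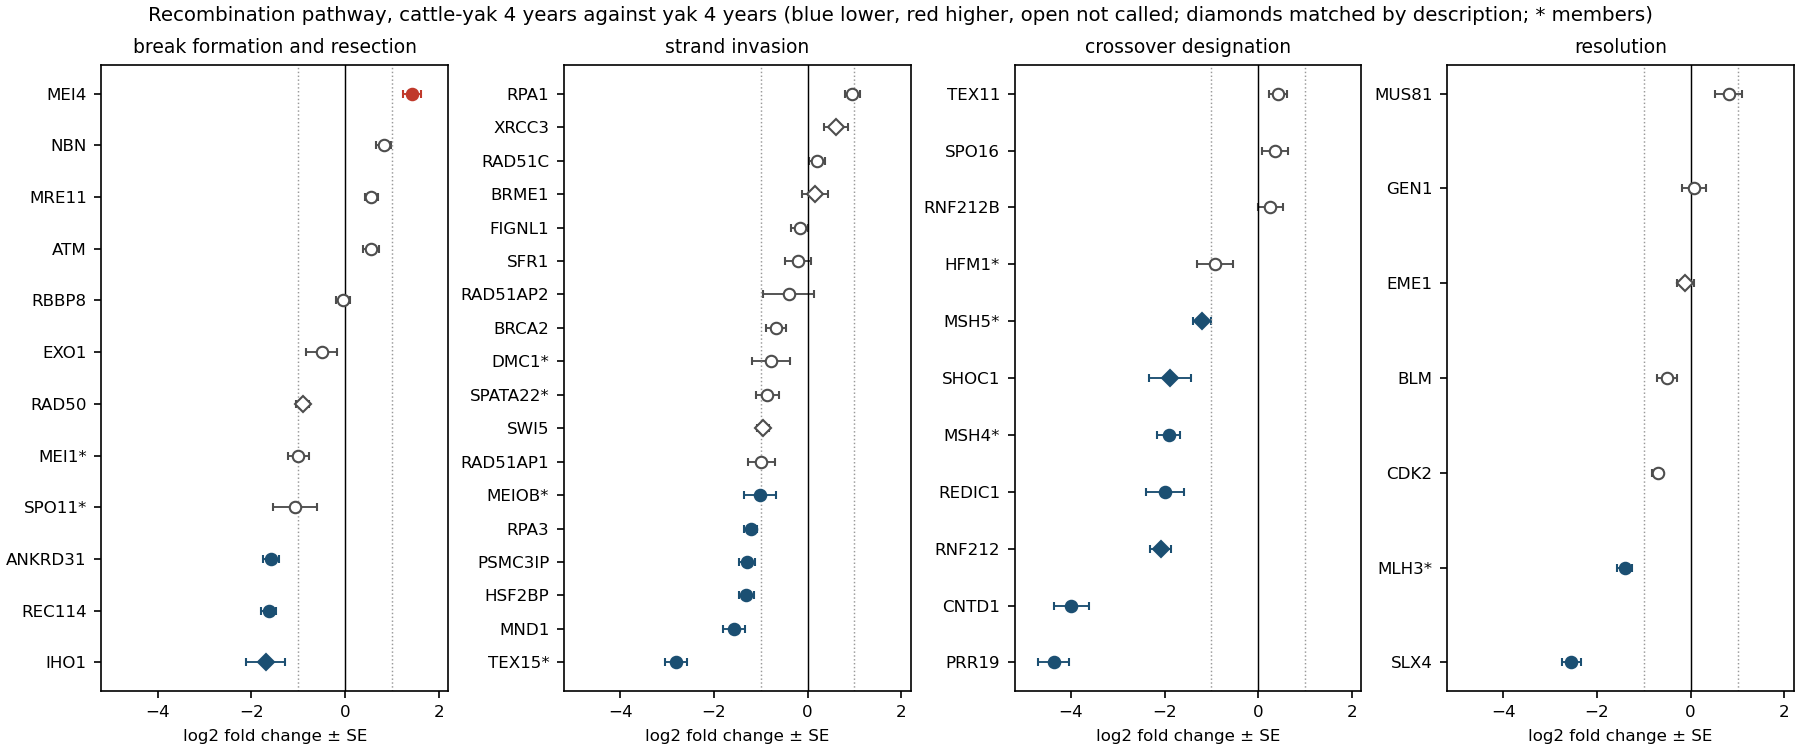
Log2 fold change of cattle–yak against yak of 4 years (horizontal axis, bars for the SE, 3 libraries each) of the recombination pathway in 4 panels by role, with members starred and rows matched by description as diamonds. PRR19 and CNTD1 at −4.37 and −3.99 are lowest, TEX15 is lowest in strand invasion at −2.81, and MEI4 at 1.42 is the only gene called higher.

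Across age, 30 of the 40 pathway genes were called higher at 4 years than at 6 months, against 31.0% of all tested genes. *ATM*, a kinase that senses breaks, was the only one called lower, by 1.07, where 24.7% of all tested genes were called lower. The call of *ATM* was lost with DESeq2, library size alone, RLE, log2(FPKM + 1) and, at −0.94, without replicate 1 of 6 months. In cattle–yak against 6 months 24 of 40 were called higher, against 18.1%. All 8 crossover designation genes found by symbol, members included, were called higher in both comparisons, which share the juvenile libraries. For this group the median log2 fold change was 5.52 in yak of 4 years and 4.07 in cattle–yak.

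Over the 12 libraries, the level of each member was correlated with the mean profile of the other members, on the scale of log2(FPKM + 1). Pearson's r was lowest for *TEX15*, 0.836, and 0.933 to 0.983 for the other 8. The pair with the highest r was *MEIOB* and *SPATA22*, 0.982, whose proteins form a complex, and the pair with the lowest was *SPATA22* and *TEX15*, 0.733. These values describe 12 libraries that fall into 4 groups and share library depth, so they carry no p. Among 10693 other genes, the 10 with the profile most like the mean of the members were *GPC2*, *TOMM20L*, *TNPO3*, *C18orf63*, *KIAA0895*, *RRP1B*, *SYCE1*, *KIF3A*, *WDR35* and *TOPAZ1*, with r of 0.992 to 0.995. One of them, *SYCE1*, is a synaptonemal complex gene, which had 0.577 FPKM at 6 months, 24.2 at 18 months, 110 in yak of 4 years and 23.8 in cattle–yak in the mean of 3 libraries.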

How the data were processed

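Ribo-seq libraries of testis were analysed from 4 groups of 3 animals. The authors removed rRNA reads with Bowtie2, aligned the rest to the yak genome BosGru with STAR and counted RFs in coding regions with RSEM. Counts were deposited by the authors as whole numbers without normalization, and FPKM were deposited by the authors as counts per effective length and library total. The deposited tables also hold fold changes and p-values of the authors' own comparisons, which were not used. Positions and sequences of genes were not used here. The members and lists were chosen with earlier results of these data known.

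Each comparison used the 6 libraries of 2 groups. After filterByExpr and TMM scaling, groups were compared by the quasi-likelihood test of edgeR 4.0.16 in R 4.3.3, and p-values were adjusted after Benjamini-Hochberg over all tested genes. The SE is the log2 fold change over the square root of F. Alternatives were each library left out, a block for the replicate number, DESeq2 1.42.0, limma 3.58.1 on log2(FPKM + 1) or log2(FPKM + 0.1), scaling by RLE, upper quartile or library size alone, counts without the filter, and 1 fit of all 12 libraries. The test was checked on simulated data. Summaries used Python 3.11.15, pandas 2.3.3 and numpy 2.4.6, and figures matplotlib 3.10.9.

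Named were all members, each pathway gene called in cattle–yak against yak of 4 years and the 10 genes most like the members in profile, among genes with a mean of at least 1 FPKM. Other genes named as examples (*TEX11*, *RPA1*, *ATM* and the markers HORMAD1 and SYCP3) were chosen after their values were seen. Of the pathway list 5 genes were matched to no row, and 1 gene that was counted is not reported here by name or drawn. Marker lists of 10 cell types were fixed by name. With 1 library per animal, p-values measure the spread between animals and library preparations together, and a limit from 0 counts covers counting error only.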

Additional observations from a re-analysis of the deposited data

How the results depend on the processing

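The direction of all 9 members was kept in cattle–yak against yak of 4 years under every alternative. The same held in both comparisons of yak of 4 years with younger yak. Of 1110 log2 fold changes under alternatives 1012 kept their direction and call, 64 gained a call, 12 lost one and 22 turned. These were of the members, the *MSH5* row and the pathway genes called in cattle–yak against yak of 4 years. Those pathway genes entered through their calls and for that comparison only. Values kept include genes that stayed without a call, so the 1012 do not measure how firm the calls were. The number of members called moved in the comparisons with yak of 18 months and in cattle–yak against yak of 4 years. In 18 months against 6 months it was 0, but 5 with DESeq2, 7 with all 12 libraries in 1 fit and 0 to 6 with each library left out, and of pathway genes 13 were called with DESeq2, 2 with library size alone, 1 with the upper quartile, 18 with all libraries, 1 and 4 on log2(FPKM + 1) and log2(FPKM + 0.1), and 0 to 16 with a library left out. From 18 months to 4 years DESeq2 called 7 members and 13 pathway genes, the fit of all libraries 2 and 5, and the fits without a library 0 to 9 and 0 to 24. In cattle–yak against 18 months DESeq2 called 1 member and 2 pathway genes, the fit of all libraries 1 and 1, both FPKM scales 1 pathway gene, and the fits without a library 0 to 3 and 0 to 7. Members called in cattle–yak against yak of 4 years ranged from 3 to 9 with a library left out and were 6 with DESeq2. Over all tested genes, the 10 calls of 18 months against 6 months became 1868 with DESeq2, 2337 with all libraries, 153 with library size alone, 130 with the upper quartile, 3 without a filter, and 170 and 434 on the FPKM scales. The 6 calls of 4 years against 18 months became 4383, 3483, 73 and 52 with DESeq2, all libraries and the FPKM scales, and the 910 of cattle–yak against 18 months became 2401 with DESeq2, 2552 with all libraries and 599 without a filter. They became 0 with each cattle–yak library left out in turn and 364, 2464 and 381 without replicates 1, 2 and 3 of 18 months. With a library left out, the 10 and 6 calls ranged from 0 to 2593 and from 0 to 7310. The cause was not tested.

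Values turned in 3 comparisons. In 18 months against 6 months *MLH3* ranged from −0.25 (without replicate 2 of 18 months) to 0.79 with a library left out. In cattle–yak against 18 months the ranges with a library left out were −0.18 (without cattle–yak replicate 1) to 1.12 for *SPO11*, −0.55 to 1.23 for *MSH4*, −0.35 to 0.64 for *MLH3*, −0.34 to 0.75 for *MEI1* and −0.21 to 0.87 for the *MSH5* row, with the highest value of each without replicate 2 of 18 months. There *MSH4* was at 0.15 and 0.51 and *MLH3* at 0.23 and 0.29 on the FPKM scales, and *MEI1* at −0.004 with the upper quartile. In cattle–yak against 6 months *TEX15* ranged from −0.37 (without cattle–yak replicate 1) to 0.043 (without replicate 1 of 6 months), and was at 0.43 with library size alone, where the median of all genes was 0.52, and at 0.34 and 0.40 on the FPKM scales. None of these turned values was called.

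Replicate numbers did not pair the samples, since the correlations of same-numbered libraries ran from −0.332 to 0.159. With the replicate number as a block, 7 members were called in cattle–yak against yak of 4 years, and in 18 months against 6 months 2 members, 6 pathway genes and 538 of all genes. The block left 0 and 1 calls over all genes in the other comparisons with 18 months, and turned *MSH4* to 0.48 and *MLH3* to 0.12 in cattle–yak against 18 months.

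The share of the crossover genes *MSH4*, *HFM1* and *MLH3* among the FPKM of the members was 10.5% in yak of 4 years and 9.49% in cattle–yak, and 13.9% and 17.6% when CPM were summed. The summed members per prophase I marker rose with age on the FPKM sum, from −3.85 to −1.85 on the log2 scale, but fell from −1.17 to −1.78 with geometric means. The geometric mean for single members was added after the data were seen.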
